A study of Homo sapiens with 2 samples.

Results

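Transcripts of the hypoxia pathway were compared between cultures of LN229, a cell line established from a human glioblastoma, for HIF1A and 9 further genes that encode its oxygen-sensing regulators or its targets outside glycolysis. The genes were HIF1A, CA9, BNIP3, BNIP3L, EGLN1, EGLN3, NDRG1, ANKRD37, KDM3A and ADM, and a probe set was taken when the platform annotation gave it exactly 1 symbol and that symbol was among them. The rule found 17 probe sets of 9 genes, out of 41091 probe sets of 19775 named genes. CA9 was not analysed here, because the annotation used here paired none of the probe sets with that symbol. The miR-127-3p culture carried pSUPER.neo-miR-127-3p, a plasmid that overexpresses the microRNA miR-127-3p, and the control culture carried pSUPER.neo alone. Both were grown in DMEM with 10% FBS and hybridised to Affymetrix arrays, with 1 array per group. The study asked which genes miR-127-3p regulates in a glioblastoma line. The labels give no oxygen level, passage or culture density, and do not say whether the transfected cells were a clone or a pool.

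With 1 array per group there is no replicate check, no difference was tested and no p-value is given. The number of arrays limits the precision. The deposited values are probe set signals in arbitrary units, and the median signal was 83.3 for the miR-127-3p array, against 93.9 for the control array. A log2 ratio below is log2(signal + 1) of miR-127-3p cells minus that of control cells, less the median over genes, so a negative value is lower with miR-127-3p. The only error available is the disagreement between probe sets of a gene, a spread of 0.44 on the log2 scale (SD, from 16448 probe sets of 5974 genes), which holds no variation between cultures. A difference between the log2 ratios of 2 probe sets has a spread of 0.63 on that basis.

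The 5 marker lists of cell types gave the following values on the same arrays. Of 13 named epithelial markers 2 were brighter in miR-127-3p cells and 11 in control cells. That count uses signals before centring and includes markers below the signal filter. Their summed signal was 7802 in miR-127-3p cells, against 86747 in control cells. Of the 6 above the filter all had log2 ratios below 0, and 5 were at least 2-fold lower, beside 8.67% of all genes. EPCAM and KRT19 were among those that passed the filter through the control array alone, which favours a lower ratio. KRT7 was at -0.73, with another probe set at 0.76. EPCAM gave 30.2 in miR-127-3p cells, against 9181 in control cells, and KRT19 gave 5.64 in miR-127-3p cells and 12674 in control cells. Of 10 glial and neural stem markers 8 were above the signal filter, of which 4 had log2 ratios above 0 and 4 below. SLC1A3, a glial glutamate transporter, gave 2689 in miR-127-3p cells and 73.9 in control cells and was at least 28.1-fold higher, while SOX2 and NES, both of neural stem cells, had log2 ratios of -1.24 and -1.03. GFAP, the defining intermediate filament of astrocytes, was below the array median on both arrays, at 14.9 in miR-127-3p cells and 34.2 in control cells. Of 6 endothelial markers 1 was above the filter, as was 1 of 4 named immune markers and 6 of 7 markers of fibroblasts and mural cells. The part that the epithelial difference has in the results below was not tested. In bulk RNA fewer cells of a type and less RNA per cell cannot be told apart.

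Hypoxia-inducible factor is a pair of proteins, an oxygen-sensitive alpha subunit such as the product of HIF1A and a stable beta subunit such as that of ARNT. In oxygenated cells the prolyl hydroxylases of the EGLN family mark the alpha subunit for capture by the VHL ubiquitin ligase and degradation. When oxygen is short the subunit persists, binds DNA at the letters ACGTG or GCGTG, and raises genes of glucose use, blood vessel growth, mitochondrial turnover and chromatin modification. EGLN3, EGLN1, BNIP3, NDRG1, ANKRD37, KDM3A and ADM are textbook examples of genes that respond. The regulation of HIF1A itself is mainly of its protein, which these arrays do not measure.

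The microRNA that distinguishes the cultures is printed here with its seed, bases 2 to 8, in capitals, from RefSeq at chr14:100883035-100883056 on the plus strand of GRCh38.p14. Transcript sequences were not used here, so matches of this seed in the members were not searched.
miR-127-3p: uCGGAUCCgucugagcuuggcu

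Of the 9 genes, 7 were lower and 2 higher with miR-127-3p. BNIP3, EGLN3, NDRG1 and ANKRD37 were at least 2-fold lower, KDM3A, EGLN1 and BNIP3L were lower by less than that, and HIF1A and ADM were higher by less than that. The 4 of 9 genes at least 2-fold lower stand beside 8.67% of all 11985 genes above the signal filter, and the 0 of 9 at least 2-fold higher beside 5.06%. All 9 had a probe set above the filter, which asks for a mean log2 signal above the median of all probe sets. EGLN3, 1 of the 4 lower genes, passed it through the control array alone, which favours a lower ratio. With a filter at the 75th percentile EGLN3 has no value, and 3 of 8 genes were at least 2-fold lower. The median log2 ratio of the 9 was -0.81, against 0 over all genes, for which the 5th and 25th percentiles were -1.37 and -0.41. At the level of probe sets, 14 of the 17 were above the filter, and of these 6 were at least 2-fold lower, beside 8.08% of all 22459 named probe sets above it, and 0 at least 2-fold higher, beside 5.28%. The 6 include a probe set of EGLN3 that was dim with miR-127-3p, and with signals under an array's median raised to it the count was 5. Of all 17 probe sets, 3 were brighter in miR-127-3p cells and 14 in control cells. That count uses signals before centring, and the control array had the higher median, 93.9 against 83.3. It includes the 3 probe sets below the filter, all brighter in control cells, and the share over all probe sets was not counted. After centring, 11 of the 14 above the filter had log2 ratios below 0.

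**Figure D1:**
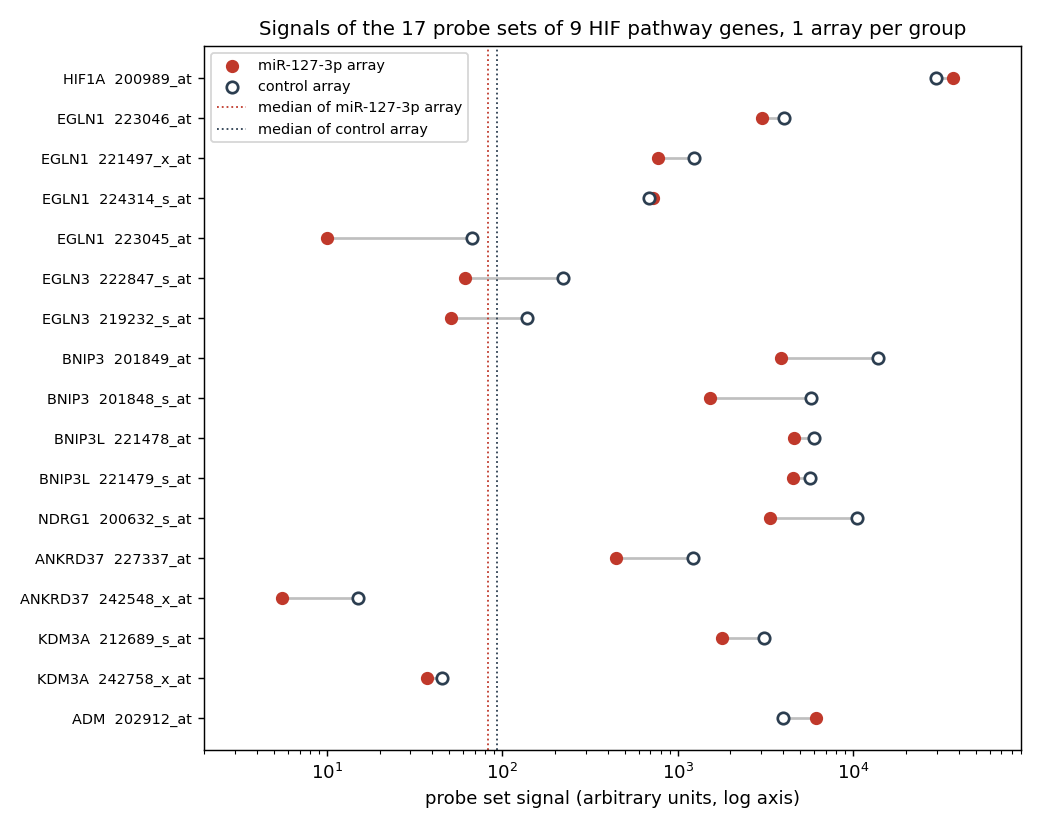
Signals of the 17 probe sets in arbitrary units on a log axis, with filled red points for the miR-127-3p array, open points for the control array and dotted lines for the array medians of 83.3 and 93.9. The points of BNIP3, NDRG1 and ANKRD37 lie well apart with the control to the right, those of HIF1A and ADM have the miR-127-3p array to the right, and both points of 3 probe sets lie below the medians.

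HIF1A, the oxygen-sensitive subunit, had a signal of 37143 in miR-127-3p cells, against 29758 in control cells. The log2 ratio was 0.31, within the spread between probe sets, and 28.3% of genes had a higher one. HIF1A had 1 probe set, so no second measurement bears on it. Among the other subunits EPAS1, the related alpha subunit, gave 4839 in miR-127-3p cells, against 4157 in control cells, a log2 ratio of 0.21. ARNT, the beta subunit, was at 0.12 by its brightest probe set, and the 3 of its 7 probe sets above the filter reached down to -1.04. ARNT2, a second beta subunit, gave 330 in miR-127-3p cells and 576 in control cells, a log2 ratio of -0.81. None of these 3 subunit genes above the filter passed 2-fold, beside 8.67% of all genes lower and 5.06% higher by that much. HIF3A was below the filter.

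EGLN3, a prolyl hydroxylase that is itself a target and acts back on the pathway, was dim on the miR-127-3p array. Its first probe set gave 61.3 in miR-127-3p cells, against 222 in control cells, and its second gave 51.0 in miR-127-3p cells and 139 in control cells. Both miR-127-3p signals lay below the array median and both control signals above it. Against that median EGLN3 was at least 2.67-fold lower at the first probe set and at least 1.67-fold lower at the second, and the fitted log2 ratios of -1.85 and -1.44 are not limits. Both probe sets passed the filter through the control array alone.

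EGLN1, the hydroxylase that sets the basal level of the alpha subunit in most cells, had 4 probe sets that did not agree. The brightest gave 3020 in miR-127-3p cells, against 4030 in control cells, a log2 ratio of -0.43, inside the spread between probe sets. A second gave 769 in miR-127-3p cells and 1243 in control cells, a log2 ratio of -0.70. Another gave 725 in miR-127-3p cells and 691 in control cells, a log2 ratio of 0.06. The remaining one was below the median on both arrays, at 10.1 in miR-127-3p cells and 66.9 in control cells, and gives no usable fold.

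Other genes of oxygen sensing and of the degradation of the alpha subunit stayed within 2-fold. Of 9 such genes above the filter none passed 2-fold in either direction, beside 8.67% lower and 5.06% higher over all genes. A list of 9 could hold none at those shares. Their median log2 ratio was -0.07. VHL, which recognises the hydroxylated subunit, gave 310 in miR-127-3p cells, against 329 in control cells, a log2 ratio of -0.10. The lowest values were those of SIAH1, a ubiquitin ligase, at -0.71, RBX1, a subunit of the VHL ligase, at -0.20 and SIAH2 at -0.19. The highest were those of ELOB at 0.24 and CUL2 at 0.23, both parts of the VHL ligase, and of P4HTM, a membrane prolyl hydroxylase, at 0.17. EGLN2, the remaining hydroxylase of the family, was below the median on both arrays. Of 6 coactivators and modulators CITED2, which competes with the alpha subunit for the coactivators EP300 and CREBBP and is a target itself, was 2.84-fold higher. CITED2 gave 1060 in miR-127-3p cells, against 369 in control cells, and the 2 of its 3 probe sets above the filter had log2 ratios of 1.51 and 2.34. CITED4, a relative of CITED2, gave 75.8 in miR-127-3p cells, below that array's median, against 167 in control cells. Against that median CITED4 was at least 2.01-fold lower. It passed the filter through the control array alone, which favours a lower ratio. With quantile normalization, the loess trend removed or a pseudocount of 32, 0 of the 6 genes were at least 2-fold lower. EP300 was at -0.18 with probe sets down to -1.20, and CREBBP was at 0.33 with probe sets above the filter up to 1.21.

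The sequences upstream of the target genes are shown for those that the comparison turns on, because the members differ in whether they hold the letters that the factor reads. RefSeq windows of GRCh38.p14, 250 bases upstream of the gene start, were matched by symbol for 8 of the 10 genes. ACGTG and GCGTG were searched on both strands, so CACGT and CACGC count as well, and the capitals mark every match. In CACGTG the letters ACGTG match on both strands at overlapping bases. ACGTG occurred in 18.5% and GCGTG in 32.2% of all 35114 windows, and either in 43.2%. BNIP3 (chr10:131981924-131982173, minus strand) and ANKRD37 (chr4:185396591-185396840, plus strand) were at least 2-fold lower, EGLN3 (chr14:33951075-33951324, minus strand) was lower from a dim signal, and ADM (chr11:10304823-10305072, plus strand) was higher.
BNIP3: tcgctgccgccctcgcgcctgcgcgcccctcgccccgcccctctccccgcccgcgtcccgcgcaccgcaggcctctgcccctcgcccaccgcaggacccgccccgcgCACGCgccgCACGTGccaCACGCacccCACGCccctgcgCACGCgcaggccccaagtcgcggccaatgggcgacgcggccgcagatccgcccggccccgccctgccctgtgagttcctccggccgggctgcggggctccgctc
ANKRD37: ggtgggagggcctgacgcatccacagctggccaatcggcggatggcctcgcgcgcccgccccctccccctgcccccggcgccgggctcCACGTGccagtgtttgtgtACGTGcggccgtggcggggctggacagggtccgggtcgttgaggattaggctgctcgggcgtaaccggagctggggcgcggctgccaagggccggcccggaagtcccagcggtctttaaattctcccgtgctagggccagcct
EGLN3: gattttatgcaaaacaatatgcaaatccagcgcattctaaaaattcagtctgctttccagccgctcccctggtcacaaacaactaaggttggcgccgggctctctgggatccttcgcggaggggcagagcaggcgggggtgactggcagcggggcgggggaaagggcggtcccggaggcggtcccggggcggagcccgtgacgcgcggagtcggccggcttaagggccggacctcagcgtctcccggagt
ADM: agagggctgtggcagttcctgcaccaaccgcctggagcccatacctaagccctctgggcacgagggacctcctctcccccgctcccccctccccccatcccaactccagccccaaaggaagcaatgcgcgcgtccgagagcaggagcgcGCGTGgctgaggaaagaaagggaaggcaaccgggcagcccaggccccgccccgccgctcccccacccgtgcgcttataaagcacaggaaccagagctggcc

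BNIP3 had 5 separate stretches of matching letters in this window, 1 of them CACGTG and 4 of them CACGC. ANKRD37 had 2 stretches, both with ACGTG. EGLN3 had none, which says only that these letters are not in this window, and ADM had 1, GCGTG. Of the windows not printed, EGLN1 had 1 stretch with ACGTG. KDM3A had 1 with GCGTG, the same letters seen in the overlapping windows of both its starts. One of the windows of HIF1A had GCGTG and the other had no match. In all, 7 of the 8 genes with a window, CA9 among them, held either motif in at least 1 window, beside 65.3% of the 9818 genes above the filter that have a window. A match is a description of the letters and not a site of binding.

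BNIP3, a mitochondrial outer membrane receptor that draws mitochondria into autophagy, differed by a like amount at both its probe sets. Its brightest probe set gave 3875 in miR-127-3p cells, against 13861 in control cells. The other gave 1539 in miR-127-3p cells, against 5726 in control cells. Both were lower with miR-127-3p, by 3.60-fold and 3.75-fold, and the log2 ratios of -1.85 and -1.91 differed from each other by 0.06. Of all genes, 3.23% had a lower ratio than the brightest probe set.

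BNIP3L, also known as NIX, is the closest relative of BNIP3 and acts in the same removal of mitochondria, as in maturing red cells. Its signals were 4587 in miR-127-3p cells, against 5966 in control cells at 1 probe set, and 4576 in miR-127-3p cells against 5655 in control cells at the other. The log2 ratios of -0.39 and -0.32 were both below 0 and both within the spread between probe sets. The log2 ratio of BNIP3 was 1.46 below that of BNIP3L, wider than the spread of 0.63, so the 2 receptors differed on these arrays by more than the probe sets of a gene usually do.

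The other mitophagy genes lay mostly on the opposite side of 0. Of 17 receptors, adaptors and autophagy proteins above the filter, 14 had log2 ratios above 0 and 3 below, with a median of 0.30, against 0 over all genes. That median lies within the spread of 0.44 between probe sets, as do most of the values above 0. By the 2-fold rule 1 of the 17 was higher (5.88%) and 0 were lower, near the 5.06% of all genes that were higher. GABARAPL1, an autophagosome protein, gave 1341 in miR-127-3p cells, against 441 in control cells and was 3.01-fold higher, with its other probe set at 1.27 on the log2 scale. SQSTM1, the cargo adaptor p62, was at 0.88 with 5 probe sets between 0.22 and 0.88, and MAP1LC3A at 0.74. FUNDC1, a mitophagy receptor of the same outer membrane, was at 0.66. The lowest values were those of PHB2, an inner membrane receptor, at -0.47, the kinase ULK1 at -0.37 and GABARAPL2 at -0.30.

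NDRG1, a cytoplasmic protein of stress and differentiation that is widely used as a hypoxia marker, gave 3347 in miR-127-3p cells, against 10578 in control cells. It was 3.19-fold lower, a log2 ratio of -1.67, and 3.63% of genes had a lower ratio. NDRG1 had 1 probe set, with a suffix that marks probes shared with other transcripts of the gene or its relatives. Its relatives stayed within 2-fold at their brightest probe sets, with NDRG3 at -0.39, NDRG4 at -0.30 and NDRG2 at 0.19. The 3 probe sets of NDRG3 disagreed and reached 1.05, and with the mean of the probe sets above the filter the median of these 3 relatives was 0.19 in place of -0.30.

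ANKRD37, a small ankyrin repeat protein, gave 443 in miR-127-3p cells, against 1217 in control cells. It was 2.76-fold lower, a log2 ratio of -1.47, and 4.51% of genes had a lower ratio. Its second probe set was far below the median on both arrays, at 5.54 in miR-127-3p cells, against 15.1 in control cells. That probe set also had the control above the miR-127-3p array, but signals of this size give no fold.

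KDM3A, a JmjC demethylase of histone H3 lysine 9, gave 1793 in miR-127-3p cells, against 3109 in control cells. It was 1.75-fold lower, a log2 ratio of -0.81, beyond the spread between probe sets but short of 2-fold. Its second probe set gave 37.3 in miR-127-3p cells and 45.5 in control cells, below the median on both arrays. Among 15 other JmjC demethylases that passed the filter, 1 was lower by 2-fold or more and 0 higher by that much. This share of 6.67% is near the 8.67% of all genes, and the median was -0.22. That gene was KDM4C, a further hypoxia-responsive demethylase, at 320 in miR-127-3p cells, against 712 in control cells and with the 3 of its 4 probe sets above the filter between -1.41 and -0.67. KDM5B was at -0.81. KDM6B was at -0.59, with probe sets on both sides of 0. KDM4A was at 0.34, KDM3B, the nearest relative of KDM3A, at 0.26 and KDM5A at 0.22. KDM3A lay 1.06 below KDM3B in log2 ratio.

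ADM, which encodes the secreted vasodilator peptide adrenomedullin, ran against the other targets among the members, but not against all targets in the wider lists. Of the 38 other targets outside glycolysis above the filter, 8 had log2 ratios above 0 and 30 below. Of the 21 glycolytic targets, 5 were above 0 and 16 below. ADM gave 6150 in miR-127-3p cells, against 3983 in control cells and was 1.53-fold higher. The log2 ratio of 0.62 lay beyond the spread between probe sets, and 13.3% of genes had a higher one. ADM lay 2.47 above BNIP3 in log2 ratio. ADM had 1 probe set. Of 7 genes of its receptor and peptide family, RAMP1, a receptor-modifying protein, was the only one above the filter, with 1506 in miR-127-3p cells, 2252 in control cells and a log2 ratio of -0.59.

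**Figure D2:**
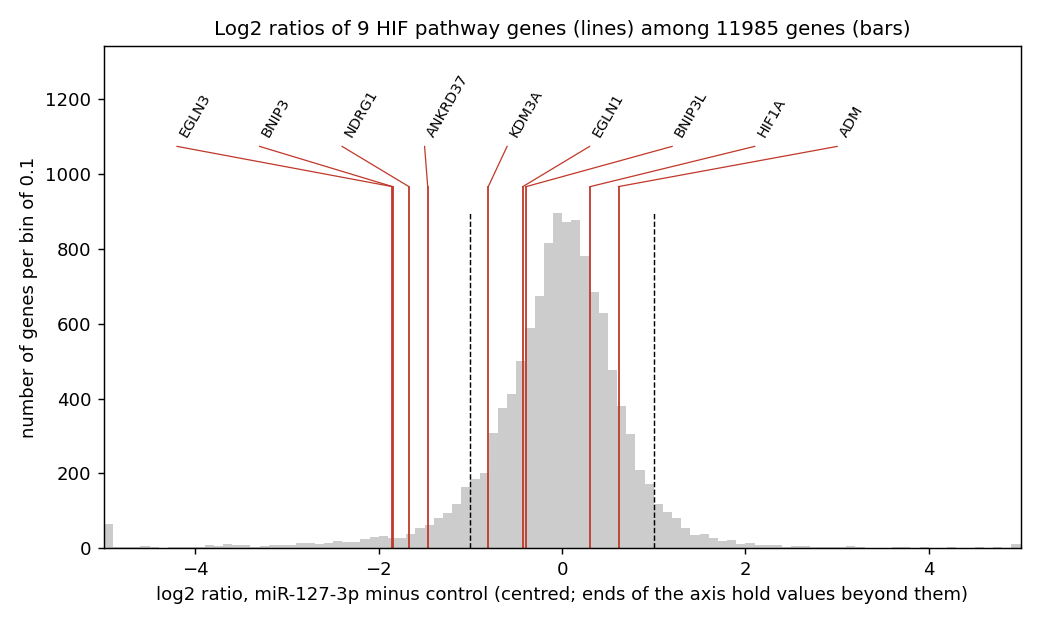
Number of genes by log2 ratio, miR-127-3p minus control, in bins of 0.1 for 11985 genes, with a red line at each of the 9 pathway genes and dashed lines at 2-fold. EGLN3, BNIP3, NDRG1 and ANKRD37 lie left of the 2-fold line between -1.85 and -1.47, and HIF1A and ADM lie right of 0 at 0.31 and 0.62. The outermost bars gather 61 genes below and 10 genes above the axis.

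Other targets outside glycolysis gave the same direction more often than not. Among the 38 that passed the filter, 14 fell at least 2-fold below the control (36.8%) and 1 lay at least 2-fold above it (2.63%), beside 8.67% and 5.06% of all genes, and the list median was -0.67. The 1 above was RORA, whose control signal lay below the median, and with signals under an array's median raised to it or a pseudocount of 16 or 32 the count above was 0. With only probe sets that lack the suffix for shared probes, 7 of 24 genes were lower and 2 higher by 2-fold, with a median of -0.46. With the mean of the probe sets above the filter, 11 of 38 were lower and 1 higher, with a median of -0.50. RAB20, a small GTPase of vesicle traffic, gave 263 in miR-127-3p cells, against 1441 in control cells and was 5.50-fold lower. PPFIA4, a liprin scaffold protein, gave 81.9 in miR-127-3p cells and 451 in control cells and was at least 5.41-fold lower. Its miR-127-3p signal lay below the array median, and it passed the filter through the control array alone, which favours a lower ratio. With a filter at the 75th percentile, 11 of 32 genes of this list were at least 2-fold lower and 0 higher. AK4, a mitochondrial adenylate kinase, gave 684 in miR-127-3p cells and 2736 in control cells, and its 4 probe sets had log2 ratios between -2.43 and -1.97. In the other direction RORA, a nuclear receptor, was at least 1.35-fold higher, at 128 in miR-127-3p cells against 57.1 in control cells. HMOX1, the haem-degrading oxygenase, was at 0.66 and STC2, a secreted glycoprotein, at 0.41.

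Some targets of that list, in use as hypoxia readouts, were singled out after their values were seen. They do not stand for the list, and most of them are among its lower genes. Of all 38 in the list above the filter, 23 were within 2-fold, 14 at least 2-fold lower and 1 at least 2-fold higher. VEGFA, the main angiogenic growth factor, gave 2139 in miR-127-3p cells, against 2603 in control cells, a log2 ratio of -0.29. The lowest of its 4 probe sets was at -0.83 and the highest at 0.08. FAM162A, a mitochondrial protein, gave 4480 in miR-127-3p cells and 12890 in control cells and was 2.90-fold lower, and the 4 of its 5 probe sets above the filter lay between -1.54 and -1.22. HILPDA, a lipid droplet protein, gave 618 in miR-127-3p cells and 1555 in control cells and was 2.54-fold lower. DDIT4, an inhibitor of mTOR signalling, gave 6372 in miR-127-3p cells and 15340 in control cells and was 2.43-fold lower. CA12, a membrane carbonic anhydrase, gave 122 in miR-127-3p cells and 262 in control cells, a log2 ratio of -1.11, and of its 7 probe sets 1 more was above the filter, at -0.12.

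Glycolytic targets, as a second set of genes of the same factor, had 5 of 21 at least 2-fold lower and 0 at least 2-fold higher, beside 8.67% and 5.06% of all genes, with a median of -0.32. The lowest were SLC2A1, a glucose transporter, at -2.19, PDK1, a kinase that limits pyruvate entry to mitochondria, at -1.97 and the enolase ENO2 at -1.88. The highest by their brightest probe sets were GYS1 at 0.49, PFKL at 0.37 and PFKFB3 at 0.25. The other probe set of PFKL was at -0.51, and probe sets above the filter reached 1.37 for TPI1 and 1.04 for HK2. With only probe sets that lack the suffix for shared probes, 3 of 11 glycolytic targets were lower and 1 higher by 2-fold, with a median of -0.31. With the mean of the probe sets above the filter, 5 of 21 were lower and 0 higher. Over both lists together 19 of 59 targets were at least 2-fold lower. Whether the lists differ from each other was not tested.

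**Figure D3:**
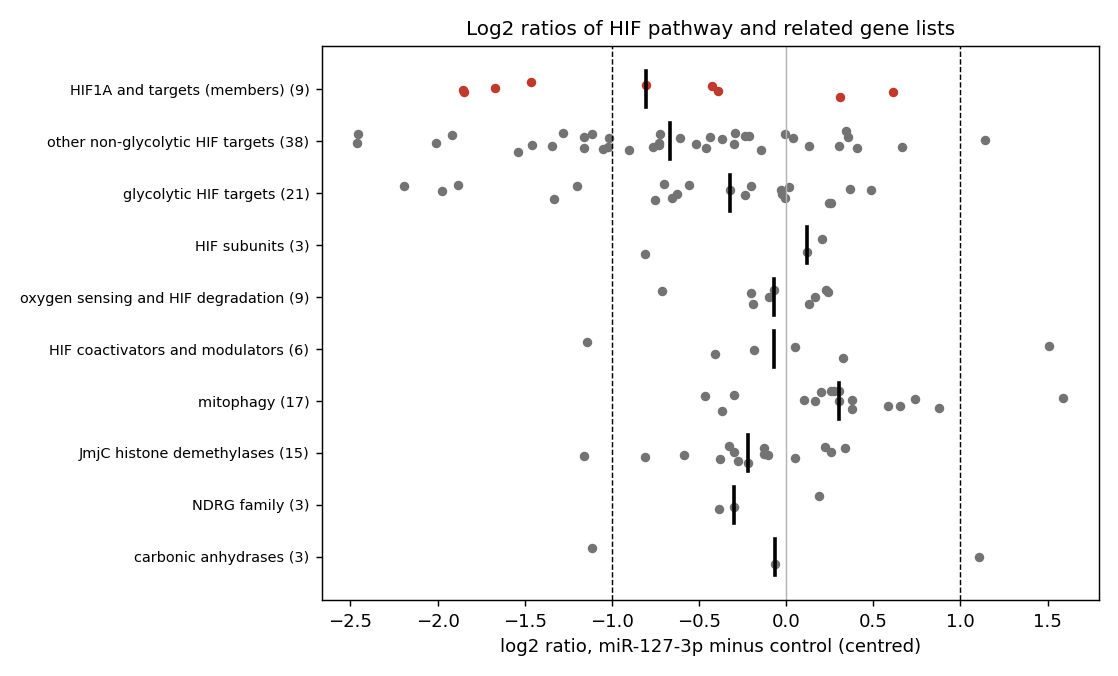
Log2 ratios, miR-127-3p minus control, of the genes above the filter in each list, 1 point per gene, with the number of genes in brackets, a black bar at the list median and dashed lines at 2-fold. The 9 pathway genes in red have a median of -0.81, the other targets outside glycolysis one of -0.67, and the mitophagy list one of 0.30.

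The values of the bright genes depended little on the processing, in the plot of probe sets and alternatives. For such genes the changes of filter, pseudocount and dim signals could hardly move the value, so they are a weak check. EGLN3, the dim gene, moved most. Over 11 alternatives BNIP3 ranged from -1.92 to -1.77, ANKRD37 from -1.51 to -1.38 and ADM from 0.56 to 0.70. NDRG1 ranged from -1.74 to -1.59 over 10 alternatives and EGLN3 from -1.84 to -1.42 over 9. Neither has a probe set without a cross-match suffix, and EGLN3 also falls below a filter at the 75th percentile. With only probe sets that lack such a suffix, 6 of the 9 genes had a value and 2 of these, BNIP3 and ANKRD37, were at least 2-fold lower.

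**Figure D4:**
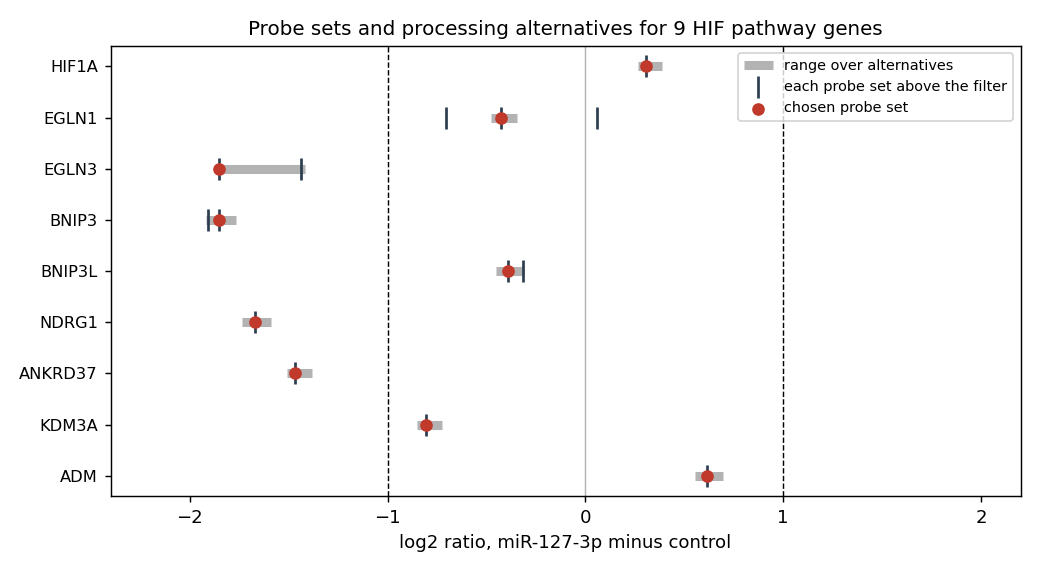
Log2 ratios, miR-127-3p minus control, of the 9 genes, with a red point for the chosen probe set, a vertical tick for each probe set above the filter, a grey band for the range over the processing alternatives and dashed lines at 2-fold. The ticks of BNIP3 lie 0.06 apart, those of EGLN1 lie on both sides of 0, and no grey band crosses a 2-fold line.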

How the data were processed

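Total RNA was extracted with Trizol and cRNA carrying biotin was made with a GeneChip kit that labels from the 3′ end, per the labels' protocols. The deposited table holds 1 linear signal intensity per probe set and array. How probes were summarised and background removed is not given in the sources used here. The mean of each array after trimming 2% at each end was 500.1, so both share a scale, judged from the values.

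From these, log2(signal + 1) was taken for 54613 non-control probe sets. The platform annotation gave 41091 of them 1 symbol, 1801 several and 11721 none, and 99.9% of single symbols were matched through gene identifiers to RefSeq GRCh38.p14. The signal filter kept probe sets whose mean log2 value lay above the median, a signal of 83.0. The brightest such probe set stood for its gene, and the median ratio over 11985 genes, 0.01, was subtracted. A fold is 2 to the power of the size of that ratio. The pseudocount of 1 is small beside the array medians and does not make the folds of dim genes cautious. With a pseudocount of 32 the log2 ratio of EGLN3 was -1.46 in place of -1.85. Where the dimmer signal was below its array's median, the fold is given as at least the ratio to that median, which is no detection call. Genes were counted past 2-fold, with no test.

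The members and the 10 pathway and 5 marker lists were chosen with earlier results of these data known. Named genes were all members, up to 3 lowest and 3 highest genes of each pathway list, and marker examples. VHL, FUNDC1, VEGFA, FAM162A, HILPDA, DDIT4, EGLN2, TPI1, HK2 and CA8 fall outside this rule and were chosen after their values were seen. CA12, KDM4B and KDM4C belong to 2 lists each. Alternatives changed the threshold (1.5-fold, 3-fold), filter (none, 75th percentile), scaling (none, quantile, loess with span 0.3, 75th percentile), pseudocount (16, 32), treatment of dim signals and choice of probe sets. The procedure was run on simulated data, in which genes had either no difference or one well beyond 2-fold. The simulated noise held only the spread between probe sets. That run therefore does not bear on calls near 2-fold or on variation between cultures. Python 3.11.15, numpy 2.4.6, pandas 2.3.3, statsmodels 0.14.6 and matplotlib 3.10.9 were used.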

Additional observations from a re-analysis of the deposited data

How the results depend on the processing

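The count of 4 genes lower by 2-fold or more in miR-127-3p cells stayed within 1.5 times of that number under 12 of 13 alternatives. It was 2 of 6 genes, and 2 probe sets in place of 6, with only probe sets that lack a cross-match suffix, where EGLN3, NDRG1 and KDM3A have no value. At a 1.5-fold threshold 1 gene and 1 probe set, both ADM, counted as higher in place of 0, and 5 genes counted as lower. The median over the genes ranged from -0.85 with the loess trend removed to -0.40 without cross-match suffixes. All 95 single gene values recomputed under the alternatives stayed within 0.44 of the value given and none changed sign. EGLN3 came closest to that limit, at -1.42 in place of -1.85 with signals under an array's median raised to it. Genes without a value under an alternative are not among the 95. Of the 38 other targets outside glycolysis, 4 counted as lower at the 3-fold threshold and 20 at the 1.5-fold threshold. The shares of all genes were counted only under the main settings, so none stands beside the counts under alternatives. No paired analysis was possible because each group has 1 array. The limits are set by 1 array per group, the single probe sets of HIF1A, NDRG1 and ADM, and the signals of EGLN3 below the median of the miR-127-3p array.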

Other observations

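Over all genes, ratios were also set beside the letters upstream of the start, with no test. Genes above the filter with ACGTG in the 250 bases upstream had a median log2 ratio of -0.0013 (2859 genes, 7.87% lower and 4.06% higher by 2-fold or more in miR-127-3p cells). Genes with GCGTG and no ACGTG had one of 0.0022 (3555 genes, 8.21% lower and 4.47% higher), and genes with neither had one of 0.02 (3404 genes, 8.40% lower and 5.70% higher). These are descriptions across genes, which are not independent replicates.

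Among carbonic anhydrases, the family of CA9, most genes were dim, with 3 of 14 above the filter. Of these 3, 1 was at least 2-fold lower and 1 at least 2-fold higher. Over all genes the shares were 8.67% and 5.06%, and 3 genes are too few to set against them. CA12 gave 122 in miR-127-3p cells and 262 in control cells and was 2.16-fold lower. CA11, a relative without enzyme activity, gave 555 in miR-127-3p cells, against 256 in control cells and was 2.15-fold higher, and CA13 gave 292 in miR-127-3p cells and 303 in control cells. CA8, another inactive relative, was chosen after its values were seen. It gave 501 in miR-127-3p cells, against 8.13 in control cells, which is at least 5.25-fold higher against the control array's median, and it stayed outside the filter because its mean was low.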
